A study of Mus musculus with 3 samples.

Results

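Scavenger and apoptotic cell receptors were examined in mouse macrophages by ChIP-Seq for RNA polymerase II phosphorylated at serine 5 (Ser5 Pol_II), in which DNA bound by the polymerase is recovered with an antibody and sequenced. The 9 members were given by name: Msr1, Marco, Cd36, Mrc1, Stab1, Lrp1, Cd68, Mertk and Axl. The rule itself uses no measured value, but these members and the lists of related genes were chosen with earlier results of these data known. All 9 matched a gene symbol of the GENCODE M1 annotation (mm9), out of 22350 protein-coding genes on chromosomes 1 to 19 and X. The cells were macrophages differentiated for a week from the bone marrow of female Fvb mice (Fvb/Hsd in the study's methods), with no genetic modification named in the labels. A first Ser5 library came from untreated cells, a second from cells given 10 ng/ml LPS (lipopolysaccharide, the bacterial outer membrane component that activates macrophages through TLR4) for 2 h, and the third library was input DNA of untreated cells, made without the antibody step. Each condition had 1 library, so no value has a replicate check and no test was run, and all intervals are 95% intervals that cover counting error only. Whether marrow was pooled over animals, and the animals' age, are not given in the sources used here.

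Macrophages clear modified lipoproteins, microbes, spent glycoproteins and dying cells through several unrelated families of surface receptor. Scavenger receptors bind polyanionic or lipid ligands and take them into endosomes, while receptors of apoptotic cells recognise phosphatidylserine on the dying cell, in part through soluble bridging molecules, and start its engulfment. Phosphorylation of serine 5 in the C-terminal repeats of the largest Pol_II subunit marks polymerase that has initiated and entered early elongation, so the signal is usually strongest near the transcription start site (TSS) and continues into active genes.

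On these chromosomes the 3 libraries held 7616771 tags (untreated Ser5), 6249819 tags (LPS Ser5) and 7533308 tags (input). Tag lengths were 45, 30 and 36 bases in that order, and the published methods give the lengths of the Ser5 libraries the other way round. The labels were therefore checked on 10 genes known to respond to LPS: all 10 were at least 2 times higher in the library labelled LPS, from 5.06 to 396 times over the gene body. The labels name LPS alone, whereas a browser view in the study names LPS with γIFN for Ser5 as well. Of 8 macrophage markers all 8 were at least 2 times above input over the gene body in untreated cells, beside 37.6% of coding genes. After LPS 7 of them were, all but Itgam (0.613 times input), beside 32.8% of coding genes. Of 19 markers of T cells, B cells, neutrophils, dendritic cells, fibroblasts, erythroid, megakaryocytic and epithelial cells none was in either Ser5 library. For those 19 genes the summed tags were 956 (untreated), 741 (LPS) and 2408 (input), and none was at 0 tags in untreated cells. Ly6g, with 1 untreated and 6 input tags, had too few for a ratio. Over the others the median Ser5 to input ratio in untreated cells was 0.363. It ran from 0.129 to 1.98, so a gene body can lie well under its input density in a Ser5 library.

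Each tag counted once, at its 5′ end, and values are given as a density in TPM per kb, where TPM stands for tags (not transcripts) per 1000000 tags of the library. Over the gene body (from the annotated 5′ end to the 3′ end), 4 of the 9 members were at least 2 times lower after LPS (Mrc1, Stab1, Lrp1 and Cd68), beside 11.2% of the 17386 coding genes that had 10 or more tags in the Ser5 libraries together. The members that were at least 2 times higher were 2, Marco and Axl, beside 5.82% of the same genes. Msr1, Cd36 and Mertk stayed within the 2-fold limits. Within 1 kb of the 5′ end (the TSS window), 3 of 8 members were lower (Mrc1, Stab1 and Lrp1), beside 14.1% of 12536 genes, and 2 were higher (Marco and Axl), beside 5.61%. Cd36 had too few tags there to be counted. The median LPS to untreated ratio of the members was 0.755 over the gene body and 0.663 in the TSS window, against 0.873 and 0.831 over all coding genes that passed the same minimum. The typical gene thus lay below 1 under this scaling, and a ratio of 0.873, not 1, is the level against which the gene body ratios stand. With input subtracted from both libraries, Mrc1, Lrp1 and Cd36 gave no ratio, since at least 1 library was at or under input, and of the other 6 members 2 were lower (Stab1 and Cd68) and 3 higher (Marco, Mertk and Axl), with a median of 1.75. Under that alternative 24.5% of coding genes were lower and 11.9% higher, with a median of 0.808. Input was subtracted at the scale of all tags. Outside the deposited Ser5 peaks lay 50.2% of untreated, 46.6% of LPS and 95.5% of input tags. The subtraction can therefore take off more than the background of a Ser5 library, and its ratios depend on this scale.

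**Figure D1:**
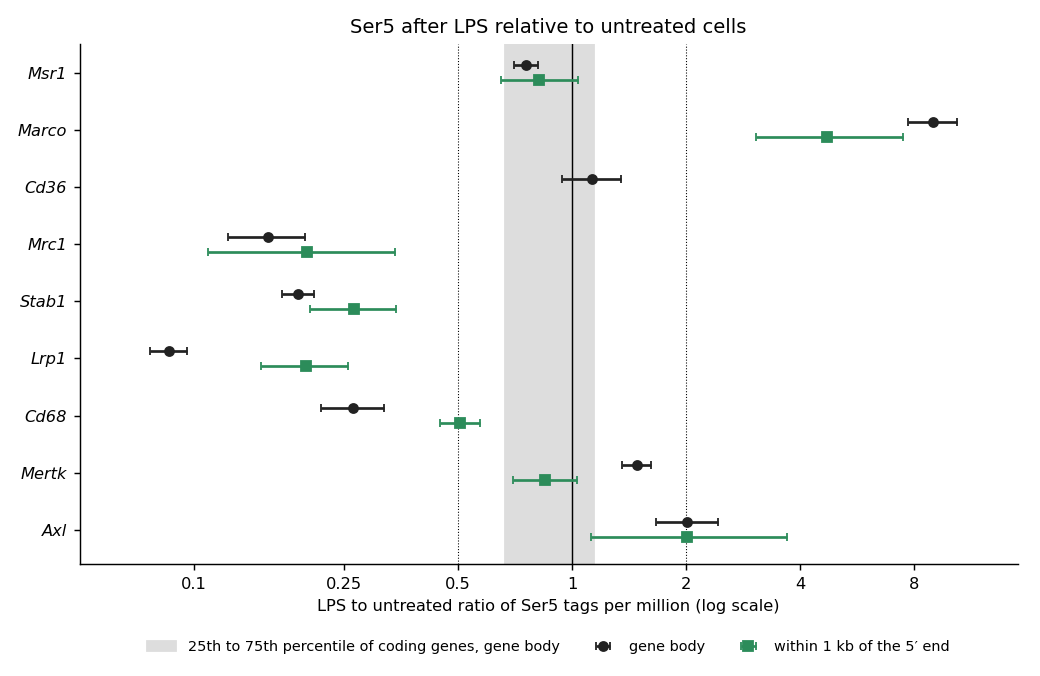
Ratio of Ser5 TPM after LPS to untreated cells on a log axis, for the gene body (circles) and the TSS window (squares) of each member, with 95% counting intervals, the 25th to 75th percentile of coding genes in grey (0.665 to 1.14) and dotted lines at 0.5 and 2. Lrp1, Mrc1, Stab1 and Cd68 lay to the left of 0.5 over the gene body, Marco far to the right, and Axl on the line at 2, while Cd36 has no TSS value because it had 1 tag there.

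Above input by at least 2 times over the gene body were 5 members in untreated cells (Msr1, Marco, Stab1, Lrp1 and Cd68), beside 37.6% of coding genes, and 8 members when the libraries were scaled to tags outside peaks, beside 54.9% of coding genes under that scaling. After LPS there were 6 (Msr1, Marco, Stab1, Cd68, Mertk and Axl), beside 32.8%. A Ser5 peak of the deposited lists overlapped the TSS window of 8 members in untreated cells, all but Cd36, beside 48% of coding genes, and of 7 after LPS, all but Cd36 and Mrc1, beside 45.9%.

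The order of gene body densities in untreated cells was Cd68 (41.7), Stab1 (13.7), Lrp1 (7.48), Msr1 (4.39), Mertk (1.16), Marco (0.885), Mrc1 (0.834), Axl (0.756) and Cd36 (0.322). Each of the 5 highest was clear of its neighbours by its counting interval, whereas those of Marco, Mrc1 and Axl overlapped. After LPS the order became Cd68 (11.0), Marco (7.92), Msr1 (3.32), Stab1 (2.58), Mertk (1.71), Axl (1.52), Lrp1 (0.644), Cd36 (0.363) and Mrc1 (0.131), in which the intervals of Mertk and Axl overlapped. Cd68 headed both lists, Marco moved from the sixth place to the second, and Lrp1 from the third to the seventh.

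**Figure D2:**
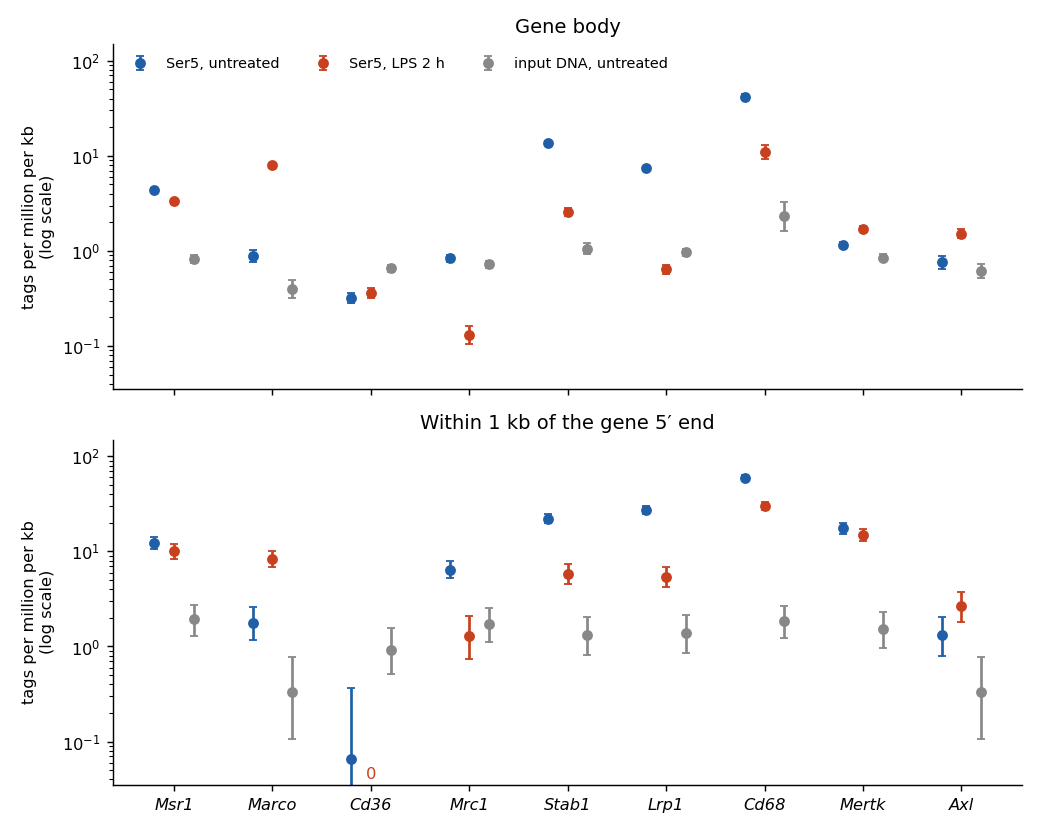
Density of tags (TPM per kb, log axis) over the gene body (top) and within 1 kb of the 5′ end (bottom) in untreated Ser5, LPS Ser5 and input, 1 library each, with exact Poisson intervals. The untreated points of Stab1, Lrp1 and Cd68 stand well above input, Marco goes from 0.885 to 7.92 after LPS, Mrc1 lies under its input after LPS, and the 0 marks the absence of LPS tags at the Cd36 5′ end.

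The promoters of 5 members are printed because they stand for the different outcomes: the highest ratio (Marco), the lowest ratios (Lrp1 and Mrc1), the highest density (Cd68) and a body that was higher after LPS while the TSS window was not (Mertk). Each runs from 250 bases before to 50 after the RefSeq start, in the direction of transcription, as given in the RefSeq promoter table (GRCm38.p6), which held 8 of the 9 members. The exact sequence was found once on its chromosome in mm9: Marco at chr1:122401552-122401851 (minus strand), Mrc1 at chr2:14150791-14151090 (plus), Lrp1 at chr10:127058155-127058454 (minus), Cd68 at chr11:69479623-69479922 (minus) and Mertk at chr2:128524401-128524700 (plus). Capitals mark GAGGAA, which holds the core bound by the macrophage factor PU.1, or its complement TTCCTC, and TGANTCA, the AP-1 site.
Marco: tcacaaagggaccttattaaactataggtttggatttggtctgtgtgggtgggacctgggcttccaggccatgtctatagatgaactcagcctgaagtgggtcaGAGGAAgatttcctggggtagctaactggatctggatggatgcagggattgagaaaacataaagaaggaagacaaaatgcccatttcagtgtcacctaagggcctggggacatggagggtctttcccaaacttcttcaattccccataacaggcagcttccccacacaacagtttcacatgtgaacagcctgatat
Mrc1: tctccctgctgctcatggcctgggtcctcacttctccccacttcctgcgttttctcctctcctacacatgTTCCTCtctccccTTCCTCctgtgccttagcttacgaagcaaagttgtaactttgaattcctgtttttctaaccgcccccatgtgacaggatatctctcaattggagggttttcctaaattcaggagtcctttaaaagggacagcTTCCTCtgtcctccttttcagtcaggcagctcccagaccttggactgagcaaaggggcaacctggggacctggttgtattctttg
Lrp1: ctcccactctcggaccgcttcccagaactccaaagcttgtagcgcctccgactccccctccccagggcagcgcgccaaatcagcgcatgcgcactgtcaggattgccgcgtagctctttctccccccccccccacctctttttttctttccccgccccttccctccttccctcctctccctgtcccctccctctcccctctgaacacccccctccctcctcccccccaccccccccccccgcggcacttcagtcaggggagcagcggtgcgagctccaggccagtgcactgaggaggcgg
Cd68: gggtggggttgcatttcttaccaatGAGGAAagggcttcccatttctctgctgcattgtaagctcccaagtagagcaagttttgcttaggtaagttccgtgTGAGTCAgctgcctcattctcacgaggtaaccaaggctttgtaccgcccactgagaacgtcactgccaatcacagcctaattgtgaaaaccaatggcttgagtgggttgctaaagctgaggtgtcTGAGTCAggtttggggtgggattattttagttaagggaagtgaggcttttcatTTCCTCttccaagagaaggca
Mertk: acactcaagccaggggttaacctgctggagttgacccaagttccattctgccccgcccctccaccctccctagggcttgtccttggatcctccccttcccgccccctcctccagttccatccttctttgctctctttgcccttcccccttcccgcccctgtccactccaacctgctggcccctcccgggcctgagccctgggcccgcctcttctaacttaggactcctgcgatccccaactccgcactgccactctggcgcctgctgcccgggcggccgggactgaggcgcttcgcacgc

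GAGGAA was found, on either strand, in 28.3% of the 32851 promoters of the table. It stood 3 times in the Mrc1 promoter, 2 times in that of Cd68 and once each in those of Marco, Stab1 and Axl. The promoters of Lrp1, Mertk and Cd36 held none. TGANTCA, present in 7.81% of all promoters, stood 2 times in the Cd68 promoter and in no other member's. TATAAA (13.6% of all promoters), CACGTG (7.15%, the E-box of MiT/TFE and Myc factors), TTGCNNCAA (2.08%, C/EBP) and the interferon-stimulated element (3.44%) were in none of these windows. The promoters of Lrp1 and Mertk were the richest in G and C (67.7% and 66.0%) with observed to expected CpG ratios of 0.590 and 0.498, against medians of 52.7% and 0.384 over all promoters. Marco had no CpG in its window and 47.3% G and C. In those 300 bases the Ser5 tags before and after LPS numbered 315 and 176 at Cd68, 144 and 97 at Mertk, 77 and 12 at Lrp1, 38 and 9 at Mrc1, and 0 and 0 at Marco, whose signal began downstream.

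Msr1 and Marco encode the class A scavenger receptors, trimeric proteins with a collagenous domain that bind modified lipoproteins and bacteria. Msr1 (ENSMUSG00000025044.8, chr8:40667054-40728032, minus strand, 61.0 kb) had 2040 gene body tags in untreated Ser5, 1264 after LPS and 378 in input. Its LPS to untreated ratio was 0.755 (0.703 to 0.810), 1.32 times lower, close to the typical gene. The TSS window gave 186 and 125 tags, a ratio of 0.819 (0.648 to 1.03). Along the gene, divided here into 10 equal segments from the 5′ end, the Msr1 signal was uneven. Ser5 density was high in segments 1 and 2 (8.35 and 7.64 in untreated cells), lower in the middle, and high again in segments 7 and 8 (8.33 and 7.02). There, in intron 8, the kb with the highest untreated density began 43 kb from the 5′ end (22.8 against 10.1 after LPS). In segments 9 and 10 it was near or under input, at 0.667 and 0.280 beside 0.457 and 0.348. Segment 8 had a lower ratio than the gene as a whole, 0.520 (0.423 to 0.636), while segment 6 was higher after LPS, at 1.33 (1.02 to 1.73).

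Marco (ENSMUSG00000026390.1, chr1:122371115-122401661, minus strand) had 206 gene body tags in untreated cells, 1512 after LPS and 92 in input, densities of 0.885, 7.92 and 0.400. The ratio was 8.95 (7.73 to 10.4), the 31st highest of the 5804 coding genes with 500 or more tags in the Ser5 libraries together. Marco passed that minimum only through its LPS tags, and among the 17386 genes with 10 or more tags its ratio was the 51st highest. With input subtracted the ratio was 15.5. The TSS window held 27 and 104 tags, a ratio of 4.69 (3.05 to 7.46). The difference covered the whole Marco gene: every segment was between 6.09 and 14.9 times higher, and the 5 kb after the 3′ end 8.82 times (6.00 to 13.4). The 4 kb before the TSS window held 3 and 7 tags beside 24 in input. Peaks covered 2.09% of the gene body in untreated cells and 81.0% after LPS.

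Cd36, the class B scavenger receptor that binds oxidised lipoproteins and long-chain fatty acids, had the lowest gene body density of the 9 in untreated cells and the second lowest, before Mrc1, after LPS. Over its gene body (ENSMUSG00000002944.8, chr5:17287508-17394777, minus strand) there were 263 tags in untreated cells, 243 after LPS and 528 in input. At the scale of all tags, on which this order depends, both Ser5 densities (0.322 and 0.363) were below that of input (0.653). The ratio was 1.13 (0.942 to 1.35), an interval that includes 1 and lies above the 0.873 of the typical gene. The TSS window held 1 tag, 0 tags and 14 tags, and after LPS the floor of 3 tags set for a count of 0 gives a density of 0.240, below the exact upper limit of 0.295. The other annotated starts of coding transcripts, 39167 and 53063 bp downstream, held 16 and 8 tags and 10 and 5 tags, with no peak. The RefSeq start is the second of these. A single small peak lay in intron 8 in untreated cells, with 9 tags against 0 after LPS.

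Mrc1, Stab1 and Lrp1 encode large endocytic receptors with several ligands each, and all 3 were at least 5 times lower after LPS over the gene body. Mrc1, the mannose receptor that clears glycoproteins ending in mannose, had 652 gene body tags in untreated cells, 84 after LPS and 560 in input (ENSMUSG00000026712.2, chr2:14151041-14253684, plus strand). Its ratio was 0.157 (0.124 to 0.197), 6.37 times lower. The body density in untreated cells was 1.15 times that of input (1.03 to 1.29), beside a median of 0.363 for the markers of other cell types. The TSS window stood further above input, with 98 tags against 26 (3.73 times, 2.40 to 5.99). That window held 16 tags after LPS, a ratio of 0.199 (0.109 to 0.340), and its peak was absent from the LPS list. Of 102 tiles of 1 kb along Mrc1, 13 held no tag in any of the 3 libraries. The precursor of miR-511 lies within the Mrc1 gene on the same strand, and too few tags (0 and 1) fell on it to be compared.

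Stab1, the scavenger receptor stabilin-1, which binds acetylated lipoprotein and phosphatidylserine, had 3089 gene body tags in untreated cells, 478 after LPS and 236 in input (ENSMUSG00000042286.7, chr14:31952199-31981827, minus strand). Its ratio was 0.189 (0.171 to 0.208), 5.30 times lower (0.121 with input subtracted), and that of the TSS window 0.265 (0.203 to 0.342) from 336 and 73 tags. In untreated cells Ser5 was densest over segments 1 to 3 of Stab1 (37.6, 22.1 and 21.9), and these kept 8.75, 2.75 and 6.48 after LPS. From segment 4 to 10 the density was 6.29 to 10.1 in untreated cells and 0.594 to 1.94 after LPS. The 3′ end of Stab1 overlaps Nt5dc2, a gene on the opposite strand with 602 and 36 tags and a ratio of 0.0729 (0.0506 to 0.102). ChIP tags carry no strand of transcription, so the signal where they meet cannot be divided. Nisch and Tnnc1, whose annotations overlap upstream of Stab1, had ratios of 0.575 and 0.568.

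Lrp1, which takes up protease complexes and lipoprotein remnants and also serves in the uptake of apoptotic cells, showed the lowest ratio of the members. It had 4727 gene body tags in untreated cells, 334 after LPS and 603 in input (ENSMUSG00000040249.9, chr10:126975217-127058204, minus strand), a ratio of 0.0861 (0.0768 to 0.0962), 11.6 times lower. Among the 5804 coding genes with at least 500 tags this ratio was the 5th from the lowest, and among the 17386 with at least 10 tags the 23rd. At the scale of all tags the density after LPS (0.644) was below that of input (0.965). Outside peaks lay 46.6% of LPS and 95.5% of input tags, so this order depends on that scale. All 10 segments of Lrp1 lay between 0.0498 and 0.150, and the 5 kb after the 3′ end at 0.0662. The TSS window kept more, 419 and 68 tags, a ratio of 0.198 (0.151 to 0.256), and the Ser5 that remained was upstream of the 5′ end: the kb before it held 294 and 61 tags (0.253, 0.189 to 0.334) and the kb after it 125 and 7 (0.0682, 0.0269 to 0.145). An antisense transcript, Gm16217, overlaps an inner stretch with 228 and 36 tags, a ratio of 0.192, and Nxph4 downstream had 17 tags in each Ser5 library.

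**Figure D3:**
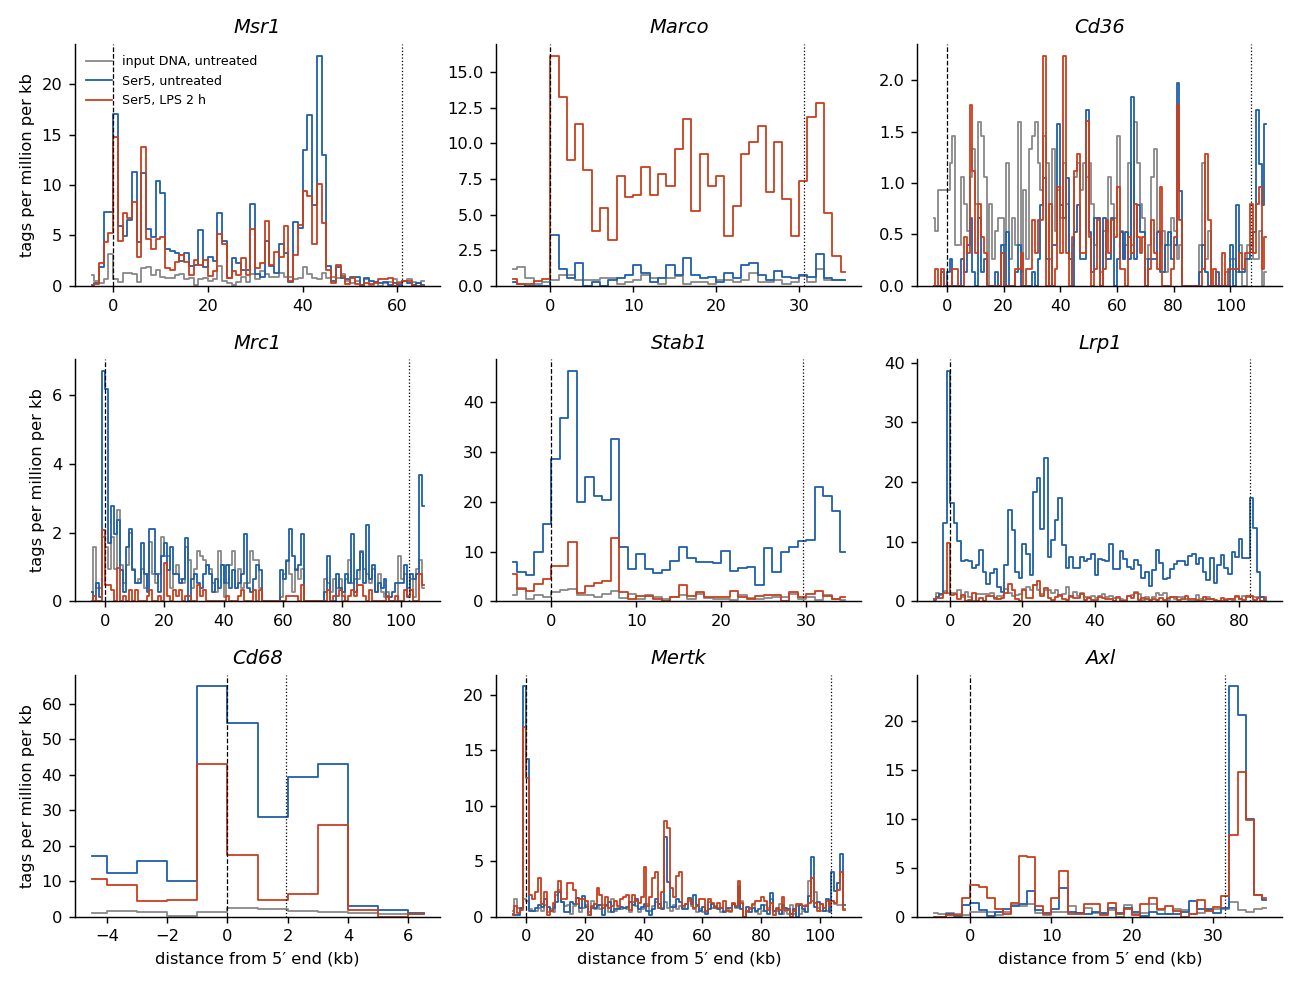
TPM per kb in tiles of 1 kb along each member, by distance from the gene 5′ end (dashed line) and with the 3′ end dotted, for untreated Ser5 (blue), LPS Ser5 (red) and input (grey), each panel with its own linear scale. Ser5 covers Lrp1 and Stab1 from end to end in untreated cells and Marco after LPS, Msr1 has a second block near 43 kb, and the high signal after the 3′ end of Axl lies at the start of Hnrnpul1.

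Cd68 encodes a heavily glycosylated protein of endosomes and lysosomes of the LAMP family, widely used as a macrophage marker. Its gene body is short, 1.94 kb (ENSMUSG00000018774.7, chr11:69477715-69479655, minus strand), and had 616 tags in untreated cells, 133 after LPS and 34 in input, which made it the member with the highest density in both conditions and 76th among all coding genes in untreated cells. The gene body ratio was 0.263 (0.217 to 0.318), 3.80 times lower. The TSS window changed less, with 909 and 378 tags and a ratio of 0.507 (0.448 to 0.572), and its 2 sides differed: the upstream kb held 494 and 269 tags (0.664, 0.570 to 0.771) and the downstream kb 415 and 109 (0.320, 0.257 to 0.396). Eif4a1, which encodes a translation initiation factor, ends 782 bp upstream of Cd68 on the same strand, with 1483 and 844 tags and a ratio of 0.694 (0.637 to 0.755). The upstream kb includes its 3′ end, so how much of the TSS signal belonged to Cd68 was not tested. Beyond the first kb the Cd68 body held 201 and 24 tags, a ratio of 0.146 (0.0911 to 0.223).

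Mertk and Axl are TAM receptor tyrosine kinases, which bind phosphatidylserine through bridging proteins such as Gas6. Mertk had 916 gene body tags in untreated cells, 1112 after LPS and 666 in input (ENSMUSG00000014361.5, chr2:128524692-128628630, plus strand), a ratio of 1.48 (1.35 to 1.62) that became 2.81 with input subtracted. Its TSS window did not follow, with 266 and 185 tags and a ratio of 0.848 (0.699 to 1.03), which reached 1.02 when the libraries were scaled by the median ratio of coding genes. Along Mertk the ratio was 1.81 in segment 2, 2.03 (1.63 to 2.52) in segment 5 and 0.922 (0.686 to 1.24) in segment 10. In the 5 kb after the 3′ end it was 0.604 (0.437 to 0.828). Split at the middle, a split made after these values were seen, the 5′ side of the gene had a ratio of 1.66 (1.48 to 1.85) and the 3′ side 1.23 (1.06 to 1.42). The strongest inner site of Mertk was a block of 2005 bp in intron 4, centred 47954 bp from the 5′ end and called in both lists, with 80 and 104 tags. Gm14011, an antisense transcript inside Mertk, held 14 and 27 tags.

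Axl had 181 gene body tags in untreated cells, 298 after LPS and 145 in input (ENSMUSG00000002602.9, chr7:26542292-26573724, minus strand), densities of 0.756, 1.52 and 0.612. Both its gene body ratio (2.01, 1.66 to 2.43) and its TSS ratio (2.01, 1.12 to 3.70, from 20 and 33 tags) sat on the 2-fold limit, and the former became 6.30 with input subtracted. With duplicate tags removed, tags moved downstream, or only tags with a unique first 30 bases, both were below it. The ratio was highest in segment 8 (4.11, 1.82 to 10.5, from 8 and 27 tags), segment 1 (3.66, 2.08 to 6.75, from 17 and 51 tags) and segment 3 (2.99, 2.00 to 4.57, from 35 and 86 tags). In the other segments of Axl it ran from 0.487 (0.186 to 1.16, segment 9) to 2.44 (0.984 to 6.58, segment 5). The intervals of all these other segments included 1. A peak in intron 4, called in both lists, held 27 and 68 tags. The flank after the Axl 3′ end, with 441 and 234 tags, contains the 5′ end of Hnrnpul1 and was not attributed to Axl.

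The distribution of Ser5 between the TSS window and the rest of the gene does not depend on how libraries are scaled. Over 11815 coding genes the median odds ratio of TSS window to rest of the gene, LPS against untreated, was 0.949, with quartiles of 0.726 and 1.26. At Lrp1 the TSS share went from 8.34% to 17.2%, an odds ratio of 2.28 (1.70 to 3.04), at Cd68 from 81.9% to 94.0% (3.48, 2.23 to 5.65) and at Stab1 from 10.5% to 14.4% (1.44, 1.08 to 1.90). In these 3 genes, all lower after LPS, the TSS window kept relatively more Ser5 than the rest of the gene. At Lrp1 this lay in the kb upstream of the 5′ end, with a ratio of 0.253. The kb after the Lrp1 5′ end was at 0.0682, beside 0.0866 for the rest of the gene. At Cd68 the window includes the 3′ end of Eif4a1. At Marco and Mertk, which were higher over the body, the share was lower after LPS, from 13.1% to 6.86% (0.489, 0.307 to 0.799) and from 24.8% to 15.2% (0.544, 0.438 to 0.673). The intervals of Msr1 (1.10, 0.856 to 1.40), Mrc1 (1.22, 0.638 to 2.21) and Axl (1.01, 0.544 to 1.93) included 1, and Cd36 had too few tags for an estimate.

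**Figure D4:**
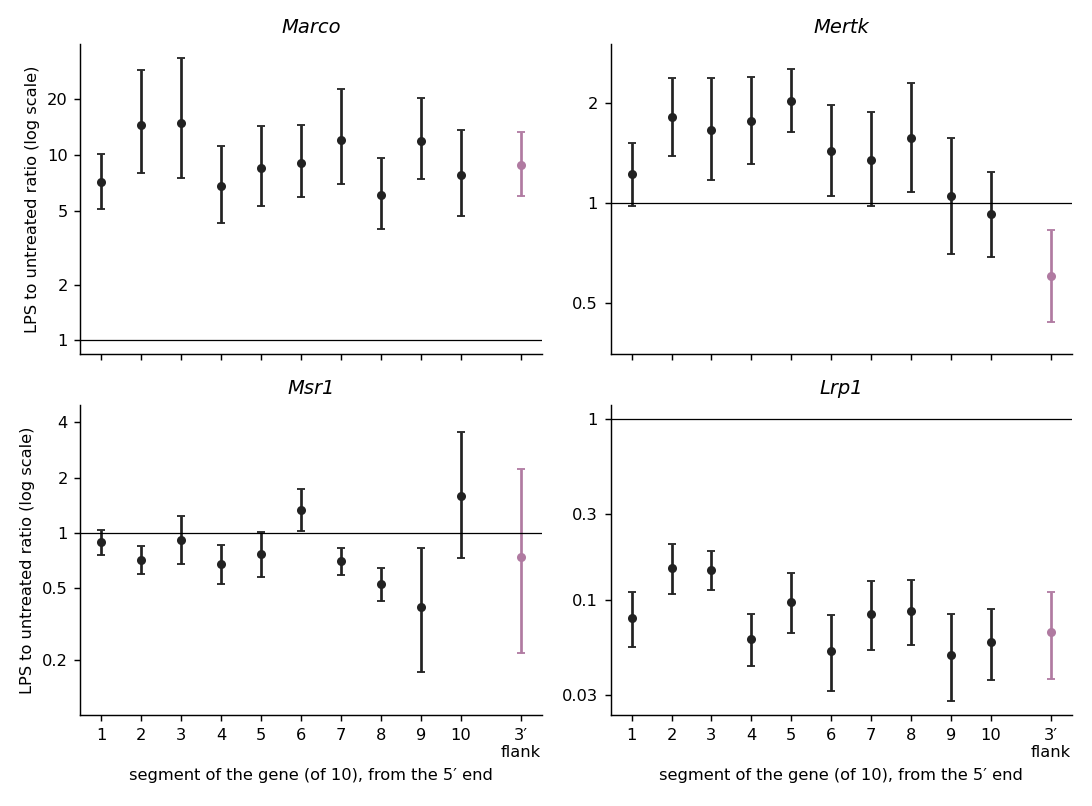
LPS to untreated ratio (log axes, with 95% counting intervals) in each of 10 equal segments of 4 members from the 5′ end and in the 5 kb after the 3′ end (purple). Marco was higher at every position, Mertk went from above 1 in the 5′ part to 0.604 in the flank, and Lrp1 lay between 0.0498 and 0.150 throughout. Msr1 ran from 0.393 (segment 9) to 1.59 (segment 10), mostly under 1, with segments 6 and 10 above it.

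The peak lists, called by the authors in each Ser5 library against input at a p-value threshold of 1e-05, were read over the same gene bodies. The untreated list held 61 peaks over the Lrp1 gene body, which covered 81.9% of it, and the LPS list 1, which covered 0.292%. Stab1 went from 13 peaks over 90.7% of the gene to 4 over 10.4%, Cd68 from 1 peak over the whole gene to 2 over 36.7%, and Mrc1 from 2 peaks to none. The untreated Cd68 peak, 5338 bp long, also reached the 3′ end of Eif4a1 upstream and the 5′ end of Mpdu1 downstream. Mpdu1 had 292 and 146 tags, a ratio of 0.609 (0.496 to 0.746). Marco went from 2 peaks to 26. Msr1 had 37 peaks over 32.6% of the gene and 26 over 22.9%, of which, after merging both lists, 21 regions were called in both. Mertk had 5 and 10 peaks over 1.73% and 3.99% of the gene, and Axl 3 and 4 over 2.63% and 6.41%. These numbers also depend on depth, which was lower in the LPS library.

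**Figure D5:**
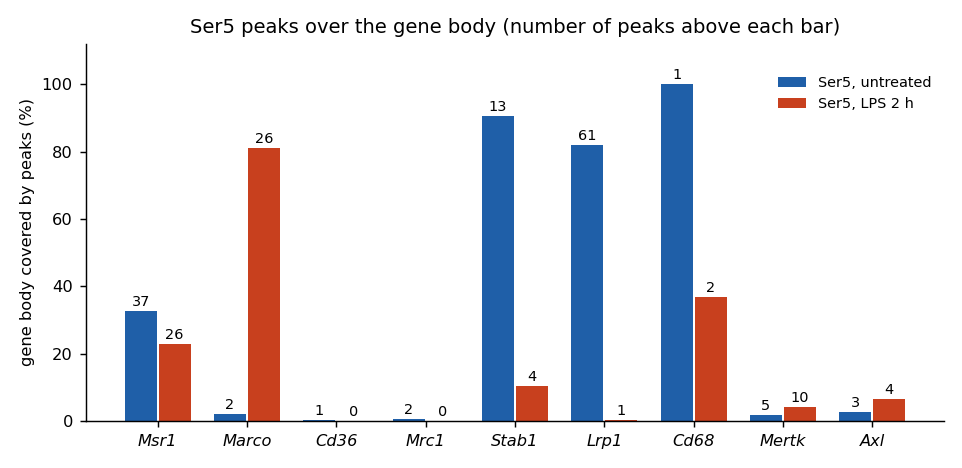
Share of each gene body covered by deposited Ser5 peaks in untreated (blue) and LPS (red) cells, in %, with the number of peaks above each bar. Lrp1, Stab1 and Cd68 were covered over most or all of their length in untreated cells and Marco after LPS.

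The other genes of these pathways were read from lists of related receptors, ligands and regulators, by the same rule of size over the gene body, under which 11.2% of coding genes were lower and 5.82% higher. Of 16 other scavenger receptors 4 were at least 2 times lower and 1 higher, with a median ratio of 0.826. The extremes were Cd163, the haptoglobin-haemoglobin receptor, with 363 and 58 tags and a ratio of 0.195 (0.145 to 0.257), and Cxcl16, a chemokine whose membrane form binds oxidised lipoprotein, with 320 and 537 tags and a ratio of 2.05 (1.78 to 2.36). Of 11 other apoptotic cell receptors 4 were lower and 1 higher (median 0.643). Cd300lb, a receptor paired with activating adaptors, had 1151 and 96 tags and a ratio of 0.102 (0.0817 to 0.125), and Timd4, the phosphatidylserine receptor Tim-4, 19 and 85 tags (5.45, 3.29 to 9.50), both below its 135 input tags.

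Of 8 bridging molecules and ligands 5 were lower and 1 higher, with a median of 0.433. Gas6, the ligand of Mertk and Axl, had 648 and 31 tags, a ratio of 0.0583 (0.0393 to 0.0836), lower than that of any member. Thbs1, which bridges apoptotic cells to Cd36 and an integrin, had 59 and 98 tags (2.02, 1.45 to 2.85). Of 11 genes for engulfment and lipid export 1 was lower, Elmo2 (993 and 283 tags, 0.347, 0.303 to 0.397), which acts with Dock proteins upstream of Rac, and 1 higher, Tgm2 (217 and 359 tags, 2.02, 1.70 to 2.40), a transglutaminase with a part in engulfment. Their median ratio was 0.887, beside 0.873 for all coding genes. Of 13 transcription factors with a known role in macrophage receptor expression 3 were lower and 2 higher (median 0.911). The extremes among them were the related MiT/TFE factors of lysosomal genes: Tcfeb (TFEB) had 1212 and 279 tags and a ratio of 0.281 (0.245 to 0.320), and Mitf 2370 and 5786 tags and a ratio of 2.98 (2.84 to 3.12).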

How the data were processed

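Ser5 Pol_II ChIP-Seq of macrophages from untreated and LPS-treated cells and input DNA, 1 library each, were analysed from the deposited tag and peak files. As the methods describe, the authors trimmed the 3′ part of 76-base reads, mapped them with Bowtie to mm9 (version not given in the sources used here), kept unique matches with at most 2 mismatches, and called peaks with MACS in each Ser5 library against input. The deposited tag files hold positions and strands, duplicates included. In the deposited peak lists the score is the authors' MACS p-value on a negative log10 scale, times 10, and was used only to select stricter peaks (p of at most 1e-10).

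Tags on chromosomes 1 to 19 and X were counted by their 5′ end, in coordinates found to count from 0, over GENCODE M1 gene bodies and 1 kb on each side of the 5′ end, and scaled to 1000000 such tags (TPM). Shorter tags align uniquely less often: the first 30 bases were repeated in the genome for 1.24% of untreated, 0.0276% of LPS and 0.446% of input tags. Without replicates no test was possible. Differences were described by a fixed rule (at least 2 times, at least 10 tags over both Ser5 libraries, 0 tags set to 0.5), with exact Poisson intervals for counts, exact conditional intervals for ratios and odds ratios, Wilson intervals for shares and a floor of 3 tags for a count of 0. Tags are not independent molecules.

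All 9 members are named. From each pathway list the genes with the largest and the smallest gene body ratio among those with at least 50 tags are named. Protein-coding neighbours of the members within 5 kb are named too, with some of the non-coding ones. The members and lists were chosen with earlier results of these data known. Symbols of 3 listed genes were matched through RefSeq synonyms. Alternatives were duplicates removed (1 tag per strand and position), a shift of 75 bp, unique first 30 bases, 2 other scalings, input subtraction, other windows, a fold of 1.5, no minimum and stricter peaks. Counting and intervals were tested on simulated data. Python 3.11.15, numpy 2.4.6, pandas 2.3.3, scipy 1.17.1, numba 0.67.0 and matplotlib 3.10.9 were used.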

Additional observations from a re-analysis of the deposited data

How the results depend on the processing

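No paired analysis was possible because each condition had 1 library, and for the same reason no library could be left out. Of 74 recomputed counts and medians 63 stayed within the limits set for them and 11 moved, and of 175 ratios of single members 162 stayed and 13 moved. No ratio past the 2-fold limits changed direction. Values within them that crossed 1 were the gene body median with input subtracted (below), the TSS ratio of Mertk, from 0.848 to 1.02 when scaled by the median of coding genes, and the odds ratios of Mrc1 (0.911 with 0.5 kb on each side) and Axl (0.867 with the same window and 0.984 with the shift), whose intervals included 1. The count of members at least 2 times higher over the gene body went from 2 to 1 with 1 tag per strand and position, a shift of 75 bp, a unique first 30 bases, or without the first 1 kb, since Axl then lay just under 2 (lowest 1.92). In the TSS window it went from 2 to 1 under the first 3 of these and with 0.5 kb on each side. With input subtracted at the scale of all tags, Mrc1, Lrp1 and Cd36 had no positive value in 1 of the libraries or both and dropped out. That left 2 lower members and a median ratio of 1.75 over 6 members (coding genes 0.808). Marco then stood at 15.5, Axl at 6.30 and Mertk at 2.81, values that depend on the scale given to input. Scaled to tags outside peaks, 8 members in place of 5 were at least 2 times above input in untreated cells, as were 54.9% of coding genes, and every LPS to untreated ratio is multiplied by 1.08. The gene body ratios of the 4 lower members ranged over the alternatives from 0.0856 to 0.0986 (Lrp1), 0.155 to 0.180 (Mrc1), 0.121 to 0.216 (Stab1) and 0.146 to 0.301 (Cd68). Few tags lay behind some values, such as the TSS window of Axl (20 and 33).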

Other observations

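The macrophage markers differed unequally between the libraries. Of the 8 markers, 4 were at least 2 times lower over the gene body, beside 11.2% of coding genes. These were Itgam (968 and 182 tags, a ratio of 0.229), Lyz2 (3994 and 1328 tags, 0.405), Csf1r (3883 and 1430 tags, 0.449) and Tyrobp (350 and 134 tags, 0.467). Another 2 were higher, beside 5.82% of coding genes: Emr1, which encodes F4/80 (2107 and 5202 tags, 3.01), and Cd14, the LPS co-receptor (620 and 1617 tags, 3.18). Fcgr1 (0.786) and Sfpi1, which encodes PU.1 (1.44), stayed within the 2-fold limits. The median ratio of the 8 markers was 0.626, beside 0.755 for the 9 receptors and 0.873 for all coding genes.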
